A study of Homo sapiens with 18 samples.

Results

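The 7 genes described here encode the mitochondrial subunits of complex I, the NADH:ubiquinone oxidoreductase of the respiratory chain. They are MT-ND1, MT-ND2, MT-ND3, MT-ND4L, MT-ND4, MT-ND5 and MT-ND6, and they were found by Ensembl identifier among the 57905 gene identifiers counted in every library. They belong to the 37 genes that mitochondrial DNA encodes, and the other 6 of its 13 messengers are no members. The genes were chosen with the amiloride values of these libraries known, so values with amiloride are given as a description and without a test. RNA selected for poly(A) tails was sequenced from 2 human multiple myeloma lines, KMS12-BM and JJN3, with 3 libraries in each of 6 groups. Controls of both lines were labelled untreated (DMSO), with no duration. Amiloride, a potassium-sparing diuretic, was given for 24 h, at 0.1 mM in KMS12-BM cells and 0.4 mM in JJN3 cells. TG003, an inhibitor of CLK kinases, was given for 24 h at 0.4 mM to both lines. The 2 amiloride doses differ, so the lines are set side by side for amiloride and not compared. Both drugs share the same DMSO libraries within a line. Nothing in the labels ties the libraries of a group to separate cultures. The p-values therefore measure only the spread between these libraries, which may be technical.

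Complex I moves electrons from NADH to ubiquinone and pumps protons across the inner mitochondrial membrane. Its mitochondrially encoded subunits form the core of the membrane arm, while all other subunits are made from nuclear genes. Each strand of mitochondrial DNA is transcribed as a long precursor that is cut mostly at the tRNAs lying between the messengers. The messengers cut out of it receive short poly(A) tails, which complete several stop codons that the DNA encodes only in part. MT-ND6 is the only messenger that comes from the light-strand promoter, and it is known to carry little or no poly(A) tail. MT-ND4L and MT-ND4 overlap and share 1 messenger.

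The genes lie on the mitochondrial chromosome of GRCh37, which is 16569 bases long, in the order MT-ND1 (chrM:3307-4262), MT-ND2 (chrM:4470-5511), MT-ND3 (chrM:10059-10404), MT-ND4L (chrM:10470-10766), MT-ND4 (chrM:10760-12137) and MT-ND5 (chrM:12337-14148) on the plus strand, and MT-ND6 (chrM:14149-14673) on the minus strand. Each is annotated as a single exon. MT-ND6 is read in the opposite direction and ends at the base after the end of MT-ND5, with 0 bases between them. The last 30 bases of each gene are shown because they hold the difference in how the messengers end; capitals mark the stop letters that the DNA encodes.
MT-ND1: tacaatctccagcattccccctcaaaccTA
MT-ND2: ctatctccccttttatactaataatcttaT
MT-ND3: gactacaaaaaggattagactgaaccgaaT
MT-ND4L: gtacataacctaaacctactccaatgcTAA
MT-ND4: accccgacatcattaccgggttttcctctT
MT-ND5: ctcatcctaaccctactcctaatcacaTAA
MT-ND6: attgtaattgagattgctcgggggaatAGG
MT-ND1, MT-ND2, MT-ND3 and MT-ND4 end in an incomplete stop, MT-ND4L and MT-ND5 end in TAA, and MT-ND6 ends in AGG. The overlap of MT-ND4L and MT-ND4 covers 7 bases, and reads there cannot be given to 1 of the 2 genes. It is shown in capitals within the 51 bases at chrM:10738-10788.
MT-ND4L and MT-ND4 overlap: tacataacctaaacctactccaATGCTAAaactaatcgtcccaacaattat
The strand of a messenger can be read from its base composition. The first 60 bases of MT-ND5 (chrM:12337-12396) and of MT-ND6 (chrM:14614-14673, minus strand) are shown with G in capitals.
MT-ND5: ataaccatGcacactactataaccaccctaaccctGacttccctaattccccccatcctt
MT-ND6: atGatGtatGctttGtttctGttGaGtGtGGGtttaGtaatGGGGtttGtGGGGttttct
G makes up 35.6% of MT-ND6 and between 9.50% and 12.1% of the other 6 genes. Lengths run from 297 bases in MT-ND4L to 1812 in MT-ND5, so levels are compared between genes only as RPKM (reads per kilobase of gene, scaled to a common library size by TMM).

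A library held between 23707695 and 50570234 reads in genes, and the 7 genes held between 23076 and 680237 of them. All 7 passed the filter on low counts in every fit. The TG003 libraries stood apart in read placement: 7.79% to 9.13% of their records were placed at more than 1 position, against 13.3% to 17.4% in the 12 other libraries, and processed pseudogenes held 0.0734% to 0.0974% of their reads in genes, against 4.22% to 5.28%. That difference coincides with TG003 in both lines and cannot be told apart from it. The plasma cell markers IRF4 and XBP1 were present in all libraries, at 436 CPM (counts scaled to a common library size) or more and 129 CPM or more, but other markers were low in 1 or both lines: SDC1 had 2.35 to 14.0 CPM in KMS12-BM, CD38 had 2.07 to 6.83 CPM in JJN3, and SLAMF7 stayed at or below 2.79 CPM throughout. The leukocyte marker PTPRC stayed at or below 0.625 CPM. The 8 plasma cell markers summed to 2072 to 2158 CPM with DMSO, 2822 to 3146 with amiloride and 904 to 959 with TG003 in KMS12-BM, and to 1953 to 2139, 1396 to 1842 and 1071 to 1177 CPM in JJN3. The sum with amiloride was thus above all DMSO libraries in KMS12-BM and below all of them in JJN3, and its part in the results was not tested. The single markers did not all follow the sum. With amiloride 2 of the 8 were higher and 3 lower in KMS12-BM, where 68.7% of all tested genes were called. In JJN3, 0 were higher and 2 lower, where 43.6% were called. The summed level of 11 markers of other cell types was 44.5 to 199.5 CPM. The highest of them in KMS12-BM was EPCAM (102 to 189 CPM), and HBA1 had 5.04 CPM or more there. In JJN3 the highest were HBB and EPCAM (21.3 to 65.8 and 19.7 to 44.0 CPM). The T cell marker CD3D, the myeloid marker LYZ and ELANE stayed under 0.1 CPM. The T cell marker CD3E reached 1.36 CPM in KMS12-BM and 2.29 CPM in JJN3. The myeloid marker CD14 reached 1.18 CPM in KMS12-BM and 1.83 CPM in JJN3. CCND1 marked KMS12-BM (458 to 1155 CPM against at most 1.94 in JJN3) and MAF marked JJN3 (637 to 1036 CPM against at most 0.946 in KMS12-BM). The libraries were stranded per the labels, but the sources used here do not give the strand setting of the counting. Without it, reads of MT-ND6 and reads of heavy-strand RNA running through the same place cannot be told apart. In bulk RNA, fewer cells with a transcript and less of it per cell cannot be told apart either.

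With DMSO, the 6 heavy-strand messengers had far more reads per kilobase than MT-ND6 in both lines. The RNA was selected for poly(A) tails, of which MT-ND6 is known to carry little or none. Its RPKM therefore does not give its amount in the cells relative to the tailed messengers. MT-ND4, a proton-pumping subunit of the membrane arm, stood highest, at 5044, 4598 and 4925 RPKM in KMS12-BM and 2418, 2737 and 2212 RPKM in JJN3. MT-ND6, a membrane subunit close to the quinone channel, stood lowest, at 46.6, 42.1 and 57.4 RPKM in KMS12-BM and 32.2, 62.1 and 43.6 RPKM in JJN3. In KMS12-BM the order by mean RPKM was MT-ND4, MT-ND3, MT-ND4L, MT-ND2, MT-ND1, MT-ND5 and MT-ND6. Only MT-ND3 and MT-ND4L overlapped there as neighbours in this order. In JJN3 the order was MT-ND4, MT-ND4L, MT-ND2, MT-ND5, MT-ND3, MT-ND1 and MT-ND6, and the neighbours from MT-ND2 to MT-ND1 overlapped. MT-ND3 thus took the second place in KMS12-BM and the fifth in JJN3.

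MT-ND4L and MT-ND4 lie on 1 messenger, and MT-ND4L had fewer reads per kilobase than MT-ND4 in all 18 libraries. Reads in the 7 bases they share cannot be given to 1 of them, and MT-ND4L has 297 bases against 1378 in MT-ND4. The part of this in the ratio was not tested. The log2 ratio of MT-ND4L to MT-ND4 had group means from -0.77 to -0.54. The difference between TG003 and DMSO was -0.09 on the log2 scale over both lines (exact permutation test within lines, two-sided, p = 0.015, Benjamini-Hochberg adjusted p = 0.09 over 6 ratio tests). This ratio was added to the tests after its values were seen, and it did not pass the correction.

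**Figure D1:**
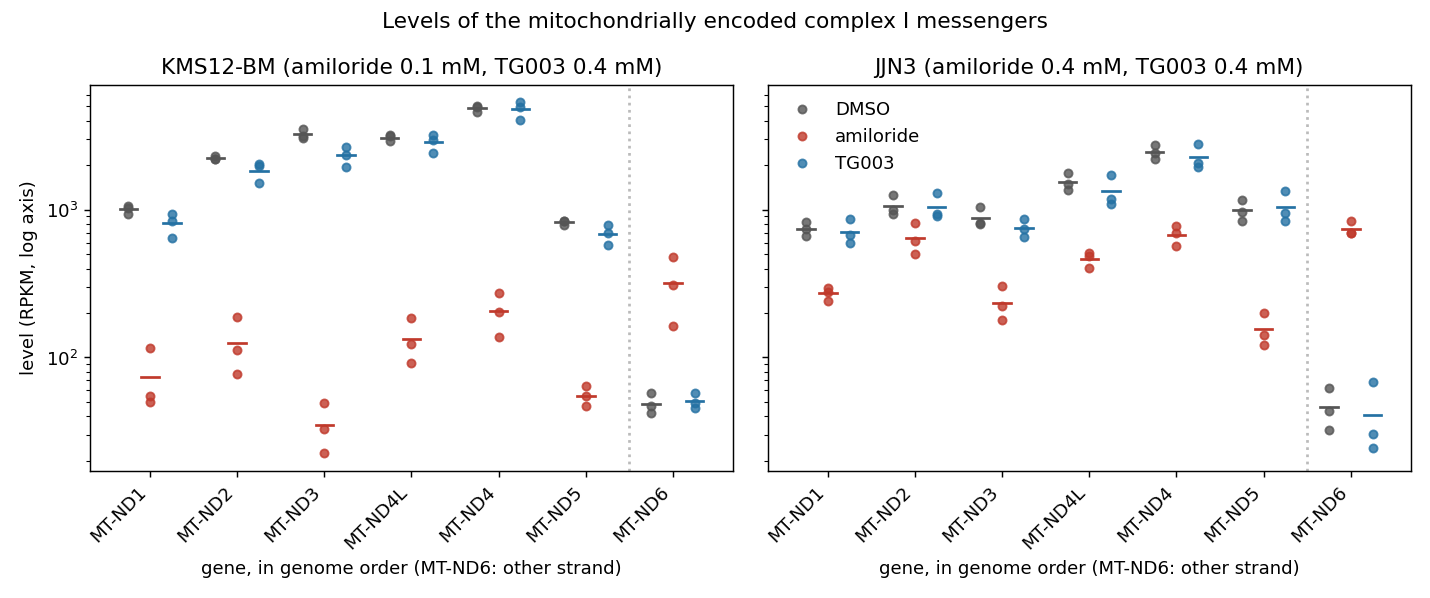
Level of each messenger in RPKM (log axis) in KMS12-BM (left) and JJN3 (right), with genes in genome order and MT-ND6, on the other strand, right of the dotted line. Each point is 1 library and each bar the mean of 3; with amiloride the 6 heavy-strand messengers lie below their DMSO libraries and MT-ND6 above, while the TG003 range overlaps the DMSO range for every messenger except MT-ND2 and MT-ND3 in KMS12-BM.

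The level of the messengers in control cells differed between the lines for some subunits and not detectably for others. MT-ND2, MT-ND3, MT-ND4L and MT-ND4 were higher in KMS12-BM than in JJN3 with DMSO, which is 4 of 7 members. Of all tested genes, 76.0% were called, and 36.8% were called as higher. MT-ND3, whose subunit lies beside the quinone-binding region, had 3519, 3038 and 3158 RPKM in KMS12-BM and 808, 1049 and 796 RPKM in JJN3. The 2 groups did not overlap, and the log2 difference was 1.87 ± 0.24 (SE), with an adjusted p of 3.95e-06 (edgeR's quasi-likelihood test with Benjamini-Hochberg adjustment over all genes tested). MT-ND2, a proton-pumping subunit, had 2297, 2208 and 2217 RPKM in KMS12-BM and 990, 1256 and 938 in JJN3. Its log2 difference was 1.08 ± 0.27 (SE, adjusted p = 0.00249, edgeR). MT-ND4L and MT-ND4, from their shared messenger, were higher by 0.998 ± 0.22 and 0.98 ± 0.20 on the log2 scale (SE, adjusted p = 0.000691 and 0.000426, edgeR). MT-ND2 has a near-identical nuclear copy: MTND2P28 on chromosome 1 matches it over 1042 bases at 98.4% identity and held 35163 reads over the 18 libraries, so the counts of MT-ND2 are uncertain. Reads placed at more than 1 position are in neither count, so that number does not bound the uncertainty. The closest copies of the other members held at most 94 reads each.

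For the remaining members the difference between the lines was not detectable with this spread. MT-ND1, at the joint of the membrane and peripheral arms, had 1053, 934 and 1032 RPKM in KMS12-BM and 740, 820 and 663 in JJN3. The ranges did not overlap, as for 78.5% of all tested genes, and the log2 difference was 0.44 (95% interval -0.11 to 0.99, adjusted p = 0.13, edgeR). MT-ND5, the subunit at the far end of the membrane arm, ran the other way, with 834, 784 and 841 RPKM in KMS12-BM and 963, 1158 and 844 in JJN3. Its log2 difference was -0.27 (95% interval -0.69 to 0.15, adjusted p = 0.225, edgeR). MT-ND1 and MT-ND5 passed the test when only the 6 DMSO libraries were fitted (adjusted p = 0.00129 and 0.0447) and when no filter was applied (adjusted p = 8.32e-06 and 0.00348). MT-ND6 overlapped between the lines, with a log2 difference of 0.08 (95% interval -0.82 to 0.98, adjusted p = 0.871, edgeR). Outside complex I, 5 of the 6 other mitochondrial messengers were higher in KMS12-BM, with a median log2 difference of 1.49 against 0.99 for the 6 heavy-strand members.

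With amiloride the complex I messengers split by strand in both lines: the 6 heavy-strand messengers were lower than with DMSO and MT-ND6 was higher. No member's amiloride range overlapped its DMSO range, which also held for 71.7% of all tested genes in KMS12-BM and 51.7% in JJN3. As the members were chosen on this contrast, nothing is read from that count. In KMS12-BM the log2 changes of the heavy-strand members ran from -6.54 to -3.78 with a median of -4.34, and in JJN3 from -2.68 to -0.73 with a median of -1.80. The median change of all tested genes was -0.02 in KMS12-BM and -0.03 in JJN3.

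MT-ND3 was lowered most in KMS12-BM. It had 49.2, 22.5 and 32.8 RPKM with amiloride, against 3038 to 3519 with DMSO, and its fitted log2 change was -6.54 ± 0.28 (SE), a 93.0-fold lower level. In JJN3 it had 179, 224 and 304 RPKM with amiloride, a log2 change of -1.91 ± 0.20. It went from the second place among the members to the last in KMS12-BM, where its range overlapped that of MT-ND5.

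The proton-pumping subunits did not move by equal amounts. MT-ND4 had 275, 138 and 203 RPKM with amiloride in KMS12-BM (log2 change -4.56 ± 0.24, SE) and 568, 694 and 773 in JJN3 (-1.86 ± 0.15). MT-ND5 had 54.5, 47.0 and 64.1 RPKM in KMS12-BM (log2 change -3.89 ± 0.14) and 122, 142 and 200 in JJN3 (-2.68 ± 0.24). MT-ND2 had 189, 76.8 and 113 RPKM in KMS12-BM (log2 change -4.15 ± 0.30) and 500, 619 and 811 in JJN3 (-0.73 ± 0.20). MT-ND5 was thus the member lowered most in JJN3 and MT-ND2 the member lowered least there, while in KMS12-BM the smallest change was that of MT-ND1, which had 115, 50.1 and 54.9 RPKM with amiloride (log2 change -3.78 ± 0.32). In JJN3, MT-ND1 had 242, 276 and 297 RPKM (log2 change -1.45 ± 0.13). MT-ND4L followed its partner on the shared messenger, with log2 changes of -4.53 ± 0.25 in KMS12-BM and -1.73 ± 0.17 in JJN3. Among the amiloride libraries of KMS12-BM, replicate 1 had the highest level of 5 of the 6 heavy-strand members and of MT-ND6, and replicate 2 the lowest of all 7. The low place of replicate 2 was not particular to amiloride. In KMS12-BM it was also the lowest of all 7 with DMSO and with TG003, for MT-ND4 at 4598 and 4071 RPKM.

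**Figure D2:**
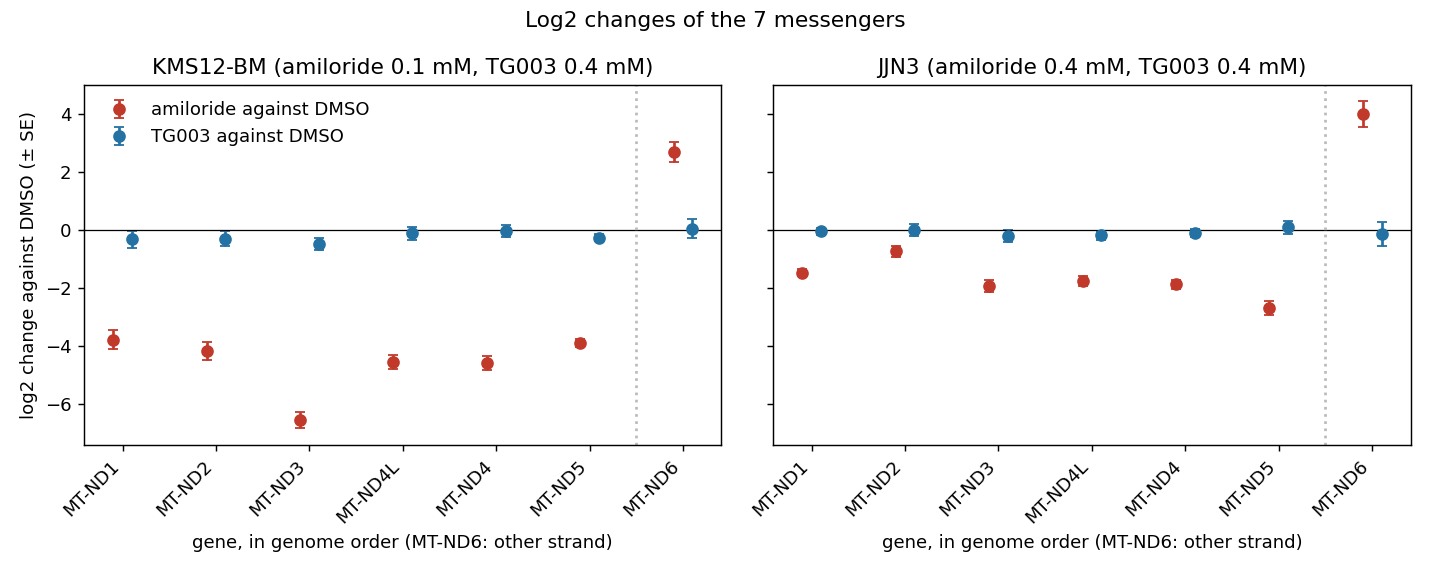
Log2 change against DMSO with its SE for each messenger with amiloride (red) and TG003 (blue), genes in genome order, KMS12-BM left and JJN3 right. With amiloride MT-ND6 is 2.70 and 4.01 above DMSO while the other 6 lie below 0; the TG003 points run from -0.47 to 0.11.

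In these libraries, selected for poly(A) tails, MT-ND6 went from the lowest RPKM of the members to one of the highest. As this messenger is known to carry little or no tail, its amount in the cells and its capture cannot be told apart. MT-ND6 had 478, 163 and 312 RPKM with amiloride in KMS12-BM and 845, 692 and 699 in JJN3, each above all DMSO libraries of its line. The log2 change was 2.70 ± 0.35 (SE), a 6.51-fold higher level, in KMS12-BM and 4.01 ± 0.45, a 16.1-fold higher level, in JJN3. By mean RPKM it was the highest of the 7 in both lines with amiloride, although its range overlapped that of MT-ND4, the next in order. These values rest on 3775 to 15678 reads per amiloride library, and on 467 to 1501 reads per DMSO library.

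The ratio of the light-strand messenger to the heavy-strand messengers can be formed within each library, and then does not depend on how libraries are scaled. It was taken as the log2 of MT-ND6 reads per kilobase minus the mean log2 of the 6 others, with 0.5 added to each count. In KMS12-BM it was -5.56, -5.58 and -5.21 with DMSO and 1.99, 1.42 and 1.91 with amiloride. In JJN3 it was -5.13, -4.44 and -4.57 with DMSO and 1.54, 0.99 and 0.72 with amiloride. MT-ND6 was below the heavy-strand mean in every DMSO library and above it in every amiloride library. The shift was 7.22 on the log2 scale in KMS12-BM and 5.80 in JJN3. As a share of the reads per kilobase of the 7 genes, MT-ND6 held 0.318% ± 0.048 (SD, n = 3) with DMSO and 32.6% ± 4.2 with amiloride in KMS12-BM, and 0.590% ± 0.140 and 23.7% ± 5.2 in JJN3.

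**Figure D3:**
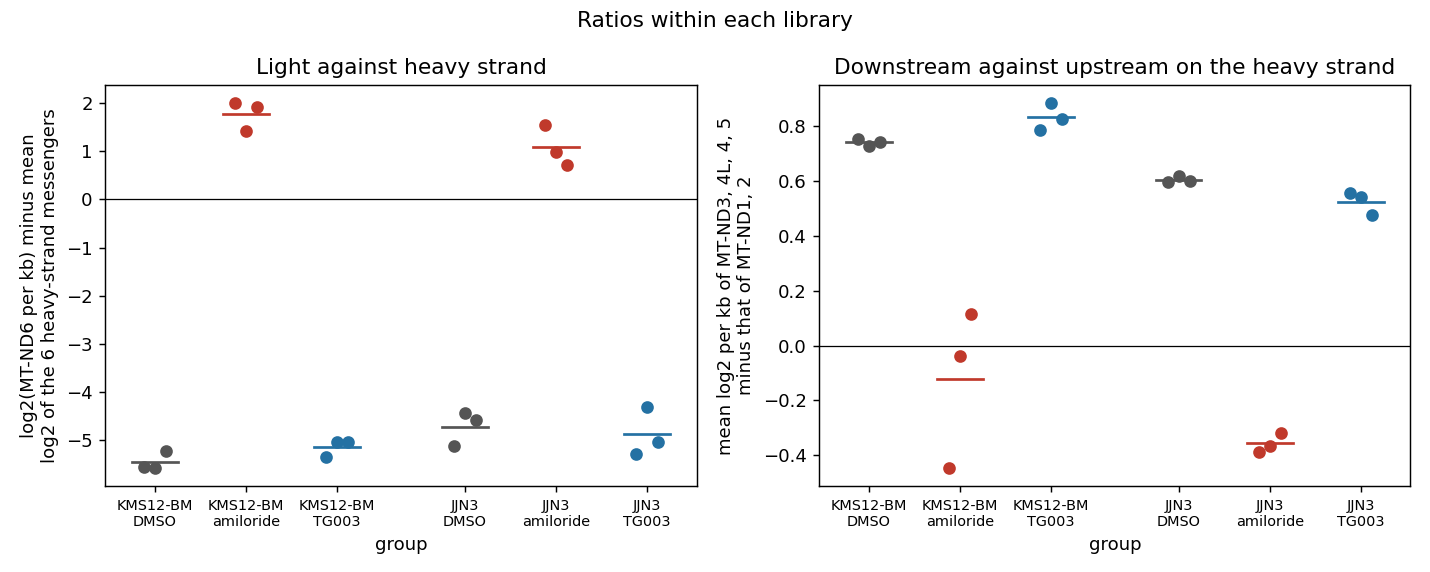
Log2 ratios within each library, with 1 point per library and a bar at the mean of 3, for the light strand against the heavy strand (left) and for the downstream against the upstream heavy-strand messengers (right). On the left, amiloride libraries lie between 0.72 and 1.99 and all others at or below -4.31; on the right, amiloride libraries lie lowest and the TG003 libraries lie above DMSO in KMS12-BM and below DMSO in JJN3.

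Heavy-strand messengers far from the promoter were compared with those near it. The mean log2 reads per kilobase of MT-ND3, MT-ND4L, MT-ND4 and MT-ND5, minus that of MT-ND1 and MT-ND2, was 0.75, 0.73 and 0.74 with DMSO in KMS12-BM and 0.60, 0.62 and 0.60 in JJN3. With amiloride it was -0.45, -0.04 and 0.11 in KMS12-BM and -0.39, -0.36 and -0.32 in JJN3. Among the members, the downstream messengers therefore lost more than the upstream ones on average, with a change of -0.86 on the log2 scale in KMS12-BM and -0.96 in JJN3. The upstream mean includes MT-ND2, whose counts are uncertain because of its nuclear copy. In KMS12-BM the fitted downstream mean change was -4.88, against -3.78 for MT-ND1 and -4.15 for MT-ND2. In JJN3 it was -2.05, against -1.45 and -0.73. MT-CO1, which is no member, lies between MT-ND2 and MT-ND3 on the same strand. Its mean was 3938 RPKM with DMSO and 42.2 with amiloride in KMS12-BM, and 3691 and 365 in JJN3. The loss did not follow the order of the genes step by step. MT-ND5 is the last of the 6 and MT-ND1 the first. Their log2 ratio within each library was -0.34, -0.25 and -0.30 with DMSO in KMS12-BM and -1.08, -0.09 and 0.22 with amiloride, so the amiloride libraries lay on both sides of DMSO. In JJN3 it was 0.38, 0.50 and 0.35 with DMSO and -0.98, -0.96 and -0.57 with amiloride, below DMSO in every library. Without MT-ND3, an alternative added after the values were seen, the change was -0.30 in KMS12-BM and -1.0 in JJN3.

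**Figure D4:**
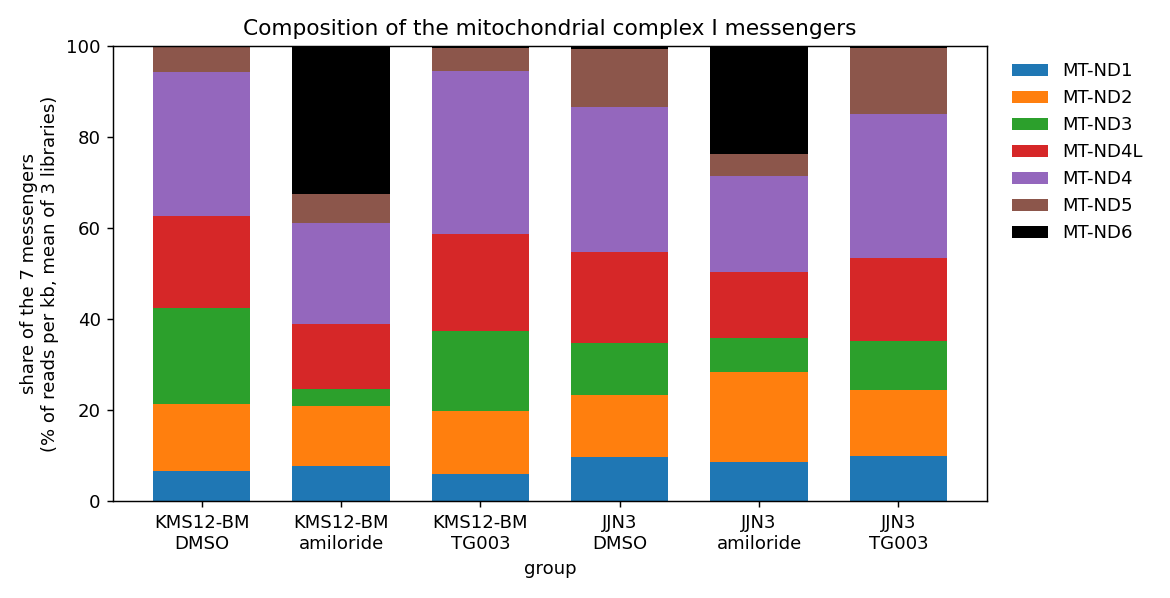
Share of each messenger in the reads per kilobase of the 7 genes, as the mean of 3 libraries per group, stacked to 100% on an axis that starts at 0. MT-ND6 (black) holds 0.318% and 0.590% with DMSO, 32.6% and 23.7% with amiloride and 0.382% and 0.541% with TG003, in KMS12-BM and JJN3; MT-ND4 is the largest share with DMSO and TG003.

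The rest of the mitochondrial genome gives the setting of these values. Over the 6 other messengers, all from the heavy strand, the median log2 change with amiloride was -5.89 in KMS12-BM (-6.54 to -5.01) and -2.03 in JJN3 (-3.34 to -1.75). The 7 complex I messengers therefore made up a larger part of the mitochondrial messenger reads, at 65.4% ± 0.6 (SD, n = 3) with amiloride against 33.6% ± 0.3 with DMSO in KMS12-BM, and 54.0% ± 1.1 against 36.1% ± 0.3 in JJN3. The ribosomal RNAs MT-RNR1 and MT-RNR2, transcribed from the heavy strand ahead of MT-ND1, had log2 changes of 1.55 and 0.99 with amiloride in KMS12-BM and of 0.42 and 0.15 in JJN3. The 22 mitochondrial tRNA genes together held 0 to 62 reads per library, with 8, 34 and 62 in the amiloride libraries of KMS12-BM and at most 2 in every other library, and none passed the filter.

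TG003 gave no called change in any of the 7 messengers in either line, where 58.6% of all tested genes were called in KMS12-BM and 58.3% in JJN3 (edgeR's quasi-likelihood test, adjusted p under 0.05). No member had an unadjusted p under 0.05 either. In KMS12-BM the log2 changes ran from -0.47 to 0.06. MT-ND3 had 2364, 1962 and 2669 RPKM with TG003, all below its DMSO libraries, and a log2 change of -0.47 (95% interval -0.96 to 0.02, adjusted p = 0.092, edgeR). MT-ND2 also lay below its DMSO range, with 2030, 1527 and 1962 RPKM and a log2 change of -0.28 (95% interval -0.88 to 0.33, adjusted p = 0.397, edgeR). Ranges did not overlap for 68.6% of all tested genes, and for 37.0% the TG003 range was the lower one. The other 5 members overlapped their DMSO ranges, and MT-ND6 had 49.0, 45.2 and 57.9 RPKM with a log2 change of 0.06 (95% interval -0.70 to 0.82).

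In KMS12-BM the count of 0 depended on the test. DESeq2 called 1 member and limma voom 1, in both cases MT-ND3, with adjusted p of 0.0369 and 0.0293. When only the TG003 and DMSO libraries were fitted, MT-ND3 and MT-ND2 passed (adjusted p = 0.0064 and 0.0449, edgeR), and without TG003 replicate 1, MT-ND5 passed with a log2 change of -0.36 (adjusted p = 0.038, edgeR). With a replicate block from consecutive library numbers, MT-ND3 and MT-ND5 passed (adjusted p = 0.0379 and 0.0258, edgeR). In JJN3 DESeq2 and voom called 0 members. There, all 7 members overlapped their DMSO ranges, whereas 66.3% of all tested genes did not, with log2 changes from -0.19 for MT-ND3 to 0.11 for MT-ND5. The widest interval was that of MT-ND6, whose 24.4, 68.5 and 30.1 RPKM gave a log2 change of -0.12 (95% interval -1.11 to 0.87). Replicate 2 of JJN3 TG003 had the highest level of all 7 members, and without it MT-ND4L passed with a log2 change of -0.40 (adjusted p = 0.014, edgeR). Replicate 2 of JJN3 DMSO, next to it in library number, was also the highest for all 7 and stayed in that fit. When that DMSO library was left out instead, MT-ND4L changed by -0.07 (adjusted p = 0.767, edgeR).

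The ribosomal RNA MT-RNR1, a part of the small subunit of the mitochondrial ribosome, is a neighbour that was called. Its level was 414, 432 and 436 RPKM with TG003 against 236, 213 and 252 with DMSO in KMS12-BM. In JJN3 it was 407, 603 and 349 against 236, 269 and 236. It was called higher in both lines, by 0.88 and 0.90 on the log2 scale, where 58.6% and 58.3% of all tested genes were called. The other ribosomal RNA, MT-RNR2, changed by 0.26 and 0.13 and was called in neither line. The TG003 libraries also stood apart in read placement in both lines, and the part of that in the change of MT-RNR1 was not tested. None of the 6 other mitochondrial messengers was called with TG003 in either line.

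The strand ratio with TG003 was -5.34, -5.04 and -5.02 in KMS12-BM and -5.28, -4.31 and -5.04 in JJN3, overlapping DMSO in both lines. Over both lines it differed from DMSO by 0.08 on the log2 scale (exact permutation test within lines, two-sided, p = 0.72, adjusted p = 0.864 over 6 ratio tests). Between the lines with DMSO, KMS12-BM minus JJN3, the ratio differed by -0.74 on the log2 scale (exact permutation test, two-sided, p = 0.1, adjusted p = 0.2), and 3 libraries against 3 cannot give a p below 0.1. With MT-ND5 alone in place of the heavy-strand mean, that difference was 0.38 and ran the other way.

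The balance of downstream and upstream messengers differed by 0.0052 on the log2 scale between TG003 and DMSO over both lines together (exact permutation test within lines, p = 0.89, adjusted p = 0.89). It was 0.78, 0.88 and 0.83 with TG003 in KMS12-BM, above all DMSO libraries of that line. In JJN3 it was 0.56, 0.54 and 0.48, below all DMSO libraries. None of the 7 members was called for a difference between the lines in the TG003 response, where 13.9% of all tested genes were called. By unadjusted p under 0.05, by DESeq2 and by voom the number was also 0. The largest of these differences was that of MT-ND5, -0.33 on the log2 scale (95% interval -0.92 to 0.27, adjusted p = 0.521, edgeR).

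The nuclear genes of the same pathway were read as lists, and their counts with amiloride are a description. Changes with TG003 coincide with the difference in read placement of those libraries, whose part in them was not tested. Of 37 nuclear complex I subunits, 6 were higher and 11 lower with amiloride in KMS12-BM, where 68.7% of all tested genes were called, and 4 were higher and 4 lower in JJN3, where 43.6% were called. Their median log2 changes were -0.10 and 0.10. NDUFV1, which binds the flavin, was lower in both lines, with log2 changes of -0.82 ± 0.08 and -0.43 ± 0.07 (SE). NDUFB1, a small accessory subunit, was higher in JJN3, with a log2 change of 1.24 ± 0.08. With TG003, 7 were called higher and 8 lower in KMS12-BM, and 6 higher and 5 lower in JJN3, where 58.6% and 58.3% of all tested genes were called. NDUFB1 rose in JJN3 by 1.10 ± 0.08 on the log2 scale (adjusted p = 1.49e-07, edgeR), the smallest adjusted p of the list in that line. NDUFB8 fell in both lines (log2 changes of -0.92 ± 0.10 and -0.73 ± 0.09, adjusted p = 1.33e-05 and 1.22e-05, edgeR), as did NDUFS6 (-0.75 ± 0.09 and -0.58 ± 0.08). Between the lines with DMSO, 14 were higher and 10 lower in KMS12-BM, against 76.0% of all tested genes called.

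Among 20 complex I assembly factors, 12 were higher and 7 lower with amiloride in KMS12-BM and 7 higher and 3 lower in JJN3, where 68.7% and 43.6% of all tested genes were called. TMEM126B, an assembly factor of the membrane arm, was higher in both lines, with log2 changes of 0.93 ± 0.08 and 0.62 ± 0.09 (SE). NDUFAF8 and ACAD9, also assembly factors, were lower in KMS12-BM with log2 changes of -1.89 ± 0.13 and -1.77 ± 0.14. With TG003, 8 rose and 5 fell in KMS12-BM and 10 rose and 3 fell in JJN3, against 58.6% and 58.3% of all tested genes called. NDUFAF6 rose in both (0.99 ± 0.15 and 1.24 ± 0.12 on the log2 scale), while NDUFAF8 fell in KMS12-BM (-0.78 ± 0.12) and DMAC1 in JJN3 (-0.78 ± 0.09). In the line comparison, 5 were higher and 10 lower in KMS12-BM, where 76.0% of all tested genes were called.

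The genes that make and process mitochondrial RNA were read in the same way. With amiloride, 3 of 8 genes of mitochondrial transcription were higher and 1 lower in each line, where 68.7% and 43.6% of all tested genes were called. TFAM, which packages mitochondrial DNA and acts at its promoters, was higher in KMS12-BM with a log2 change of 0.63 ± 0.07 (SE). TFB2M, a factor needed to open the promoters, had log2 changes with amiloride of 0.51 ± 0.08 in KMS12-BM and 0.44 ± 0.08 in JJN3 (SE), and MTERF2 of -1.57 ± 0.18 and -0.84 ± 0.16. Of 17 genes of mitochondrial RNA processing and decay, 5 were higher and 6 lower with amiloride in KMS12-BM and 7 higher and 2 lower in JJN3. FASTKD1, FASTK and ELAC2, the last of which cuts the 3′ ends of the tRNAs, had log2 changes of -1.05 ± 0.09, -1.12 ± 0.13 and -1.14 ± 0.16 in KMS12-BM. TBRG4 was higher in JJN3, with a log2 change of 0.34 ± 0.06. Of 4 genes of mitochondrial DNA maintenance, 1 was higher and 2 lower with amiloride in KMS12-BM and 2 higher in JJN3.

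The TG003 values of these genes also coincide with the difference in read placement of those libraries, whose part in them was not tested. With TG003, POLRMT, the mitochondrial RNA polymerase, rose by 0.91 ± 0.22 in KMS12-BM and 1.29 ± 0.11 in JJN3 on the log2 scale (adjusted p = 0.00456 and 2.47e-07, edgeR). SLIRP, which stabilises mitochondrial messengers, rose by 1.82 ± 0.29 and 2.11 ± 0.28 (adjusted p = 0.000468 and 0.000198, edgeR). TFB2M fell by 0.37 ± 0.08 on the log2 scale in KMS12-BM (adjusted p = 0.00194, edgeR). Among the processing genes in KMS12-BM, TRMT10C and HSD17B10, both subunits of the enzyme that cuts the 5′ ends of mitochondrial tRNAs, had smaller adjusted p than SLIRP and fell, with log2 changes of -0.83 ± 0.07 and -0.52 ± 0.08 (adjusted p = 1.63e-06 and 0.000123, edgeR). In JJN3, PNPT1 and SUPV3L1, which degrade mitochondrial RNA together, rose by 1.27 ± 0.13 and 0.52 ± 0.08 on the log2 scale. The transcription list held 2 higher and 1 lower in KMS12-BM and 5 higher and 0 lower in JJN3. The list of processing and decay held 2 higher and 8 lower in KMS12-BM and 6 higher and 2 lower in JJN3, and that of DNA maintenance 0 higher and 2 lower, and 1 higher and 1 lower, where 58.6% and 58.3% of all tested genes were called. Between the lines with DMSO, these 3 lists held 2, 9 and 2 genes higher and 3, 4 and 2 lower in KMS12-BM, where 76.0% of all tested genes were called. The processing genes GRSF1 and TBRG4 differed most clearly there, GRSF1 being lower in KMS12-BM with a log2 difference of -2.09 ± 0.08 and TBRG4 higher with 1.30 ± 0.07 (adjusted p = 3.57e-15 and 5.87e-13, edgeR).

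Outside the mitochondrial genome, the genes most like the mean of the 6 heavy-strand members over the 18 libraries were C15orf40, ABHD14B, CIDEB, NPHP4 and SCRN2, with Pearson's r of 0.99 each among 10794 genes compared on log2 CPM after the mean of each line was removed. The 18 points fall into treatment groups, and the amiloride libraries carry most of the range. ABHD14B came closest in size, with log2 changes with amiloride of -4.07 in KMS12-BM and -1.62 in JJN3. The genes most like MT-ND6 were HERC3, INPP1, AK3, LTB and RESF1, with r from 0.92 to 0.95. Of these LTB, a cytokine of the lymphotoxin family, had the largest changes with amiloride, 1.42 in KMS12-BM and 2.29 in JJN3 on the log2 scale, against 2.70 and 4.01 for MT-ND6.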

How the data were processed

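Per the submitters' processing notes, reads were handled with cutadapt 1.4, TopHat2 2.0.11 (hg19), HTSeq 0.6.1p1 and DESeq2 1.12.4. The authors deposited 1 raw read count per Ensembl gene and library. The sources used here do not give the annotation, the strand setting of the counting or the mitochondrial sequence of their hg19. The coordinates and sequences printed are those of GRCh37 and its GENCODE annotation, which matched 55538 identifiers. The deposited normalized tables were not used. Counts were fitted with edgeR 4.0.16 (R 4.3.3): filterByExpr (minimum count 10, total 15), TMM, robust quasi-likelihood F test, Benjamini-Hochberg adjustment over all genes tested, called at an adjusted p under 0.05. A drug was compared with DMSO in a fit of the 9 libraries of 1 line, and the lines and their interaction in a fit of all 18. The SE is the log2 change divided by the square root of F, an approximation, and 95% intervals use the fitted degrees of freedom. RPKM uses TMM over all 18 libraries and the annotated gene length. The fit was also run on simulated counts, drawn independently with the same dispersion for every gene. That run does not show how the fit performs for the members, whose levels moved together between libraries. Reads carry no molecular identifiers and are not independent molecules.

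The members, lists and tests were chosen with earlier results of these data known. All 7 members are named in every comparison, with at most 3 genes per nuclear list (smallest adjusted p) and the 5 most alike genes with a mean of at least 5 CPM. PECAM1, 1 of 12 markers of other cells, had no identifier.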

Additional observations from a re-analysis of the deposited data

Results flagged for a closer look

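The balance of downstream (MT-ND3, MT-ND4L, MT-ND4, MT-ND5) and upstream (MT-ND1, MT-ND2) messengers differed from DMSO in opposite directions with TG003 in the 2 lines. Its change against DMSO was 0.09 on the log2 scale in KMS12-BM and -0.08 in JJN3, and in both lines the 3 TG003 libraries did not overlap the 3 DMSO libraries. The difference between the lines was 0.17. It is given as a description: the comparison was added after this separation had been seen, and the separation by itself fixes the permutation p at its smallest possible value, so no p is given. The size was 0.10 when MT-ND4L was left out, 0.23 when MT-ND3 was left out, and -0.06 for MT-ND5 minus MT-ND1 alone. That last ratio did not move in opposite directions. With TG003 it was -0.24, -0.16 and -0.27 in KMS12-BM, against -0.34, -0.25 and -0.30 with DMSO. In JJN3 it was 0.51, 0.63 and 0.48 against 0.38, 0.50 and 0.35. It was thus higher on average with TG003 in both lines, with overlapping ranges. The TG003 libraries also stood apart in read placement in both lines, whose part in this was not tested.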

How the results depend on the processing

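The amiloride values kept their sign under every alternative run. Leaving out each library in turn gave a median change of the heavy-strand members from -4.70 to -4.10 in KMS12-BM, and without amiloride replicate 1 MT-ND1 changed by -4.26 there. The shift of the strand ratio was 7.51 in KMS12-BM without MT-ND1 and MT-ND2, and with MT-ND5 as the only heavy-strand member it was 6.49 in KMS12-BM and 6.76 in JJN3. The downstream against upstream change was -0.021 and -1.25 for MT-ND5 minus MT-ND1 as means of within-library ratios in KMS12-BM and JJN3, -1.07 in JJN3 without MT-ND4L, and -0.30 and -1.0 without MT-ND3 (added after the values were seen). With TG003 in KMS12-BM, 1 member was called by DESeq2, 1 by voom and 2 (MT-ND2 and MT-ND3) with the compared groups alone. A replicate block from consecutive library numbers called 2 (MT-ND3 and MT-ND5). Correlations of same-set deviations ran from -0.04 to 0.08, below the 0.1 required to treat the numbers as pairs. However, 12 of 15 same-set comparisons correlated best with their own set. Consecutive library numbers in the labels form sets that each hold a library of every group. Replicate 2 of every group falls in the same set. It was the lowest for every member in all groups of KMS12-BM. In JJN3 it was the highest for every member with DMSO and with TG003, but for none with amiloride. The labels do not say how a set was made, so whether the sets are pairs in the design cannot be settled here. Leaving out each library in turn called 0 to 1 members in KMS12-BM and 0 to 1 in JJN3. Small TG003 changes had no stable sign. With upper-quartile factors MT-ND4 changed by 0.057 in KMS12-BM, and leaving out libraries gave, in KMS12-BM, -0.19 to 4.92e-06 for MT-ND4L, -0.10 to 0.081 for MT-ND4 and -0.045 to 0.19 for MT-ND6. In JJN3 it gave -0.19 to 0.084 for MT-ND1, -0.17 to 0.14 for MT-ND2, -0.26 to 0.011 for MT-ND4, -0.11 to 0.24 for MT-ND5 and -0.72 to 0.16 for MT-ND6. For the difference between the lines in the TG003 response it gave -0.031 to 0.32 for MT-ND4L, -0.010 to 0.27 for MT-ND4 and -0.079 to 0.81 for MT-ND6, and for the lines with DMSO -0.12 to 0.37 for MT-ND6. Over both lines the TG003 strand ratio ran from -0.064 to 0.18 and the TG003 genome order from -0.0077 to 0.017, which was 0.10 for MT-ND5 minus MT-ND1 (exact permutation p = 0.03). The difference between the lines in that order was -0.061 for MT-ND5 minus MT-ND1 and 0.10 without MT-ND4L. The strand ratio between the lines with DMSO was 0.38 with MT-ND5 alone. The cause of these shifts was not tested. The members held at least 338 reads in every library, so the spread between 3 libraries limits these comparisons.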
